A study of Mus musculus with 36 samples.

Results

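Imprinted genes are transcribed mainly from the chromosome of 1 parent. The list followed here holds 41 of them, taken as named symbols from among the 24803 genes that had a value after the transcript entries of each gene were added up. They were followed in the main olfactory epithelium (MOE), the vomeronasal organ (VNO) and the olfactory bulb (OB) of C57BL/6 mice at 6 months of age. The rule uses symbols alone and sets no threshold on a measured value. By their positions in the files (mm9), the members fall into 17 loci, of which 7 hold a single member. By textbook knowledge 23 are expressed from the paternal allele, 12 from the maternal allele, and 6 differ between tissues or have an imprinted partner. C57BL/6 is an inbred strain, so the parental alleles cannot be told apart in these data and the values are totals over both.

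The 36 RNA-seq libraries come from 12 groups of 3. In each tissue there are females (SF) and males (SM) that were housed sex-separated, and females (CF) and males (CM) that were housed sex-combined. Mice were weaned at 3 weeks and then kept either away from or together with the opposite sex. The labels name no transgene and no drug, and each library is a pool of several mice, so the spread between replicates is a spread between pools. The 3 tissues were dissected from the same animals, and whether pools of the same number hold the same mice in each tissue is not given in the sources used here, so the tests between tissues treat the libraries as independent. The libraries were made from total RNA after removal of ribosomal RNA. Levels are given as FPKM, fragments scaled to the length of the transcript and to the mapped fragments of the library, which the authors computed for each library separately.

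Imprinting is set in the germ line, where DNA methylation is laid down on 1 parent's copy of a control region. After fertilization the mark is kept through the action of the zinc finger protein ZFP57, its partner TRIM28 and the methyltransferase DNMT1. Many imprinted genes act on growth, on the placenta and on the brain. They lie in clusters in which paternally and maternally expressed genes share a control region, often with a long noncoding RNA whose transcription silences its neighbours in cis.

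The start sites of several members can be read from their promoters, here RefSeq windows of 300 bases (250 before to 50 after the annotated start) in GRCm38.p6. The first sequence is shown because Peg3 and Usp29, a pair of paternally expressed genes, start head to head. The capitals mark the first 50 transcribed bases of Usp29, which is read on the other strand, and then those of Peg3. Their starts lie 164 bases apart on chromosome 7 and the windows of both genes share 263 bases. The window is chr7:6730370-6730669 on the minus strand.
Peg3: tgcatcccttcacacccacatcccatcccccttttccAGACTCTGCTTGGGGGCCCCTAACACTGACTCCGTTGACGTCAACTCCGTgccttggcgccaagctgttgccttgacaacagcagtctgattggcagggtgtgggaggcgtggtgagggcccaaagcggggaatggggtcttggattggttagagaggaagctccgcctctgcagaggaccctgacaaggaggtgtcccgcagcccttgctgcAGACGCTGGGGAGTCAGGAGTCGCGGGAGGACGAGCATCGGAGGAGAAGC
Meg3, the maternally expressed noncoding RNA of the Dlk1-Dio3 region, is shown with both of its annotated starts, since the tissues differed in the entries they used. The first window is chr12:109540746-109541045 and the second chr12:109545148-109545447, both on the plus strand, and the starts lie 4402 bases apart. In these and the following sequences the capitals mark TGCCGC or its reverse complement GCGGCA, the hexamer that ZFP57 binds when it is methylated.
Meg3 first start: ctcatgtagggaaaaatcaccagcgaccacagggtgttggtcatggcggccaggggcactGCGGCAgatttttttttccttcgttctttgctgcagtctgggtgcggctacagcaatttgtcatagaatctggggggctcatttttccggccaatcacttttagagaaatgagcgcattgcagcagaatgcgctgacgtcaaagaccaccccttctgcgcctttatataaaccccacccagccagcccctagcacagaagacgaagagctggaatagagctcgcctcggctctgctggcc
Meg3 second start: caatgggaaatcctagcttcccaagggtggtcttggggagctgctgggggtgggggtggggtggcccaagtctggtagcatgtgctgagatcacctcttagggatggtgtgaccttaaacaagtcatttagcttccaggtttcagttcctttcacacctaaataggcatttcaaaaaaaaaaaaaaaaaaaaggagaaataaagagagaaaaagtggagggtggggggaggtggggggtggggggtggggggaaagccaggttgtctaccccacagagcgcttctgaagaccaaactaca
The first Meg3 window holds 13 CpG dinucleotides and 1 hexamer, while the second holds 1 CpG and 0 hexamers. Further promoters are shown for their 2 or more copies of the hexamer, which are Nap1l5 at chr6:58907077-58907376 (minus strand), Mest at chr6:30737800-30738099 (plus strand) and Zdbf2 at chr1:63200108-63200407 (plus strand).
Nap1l5: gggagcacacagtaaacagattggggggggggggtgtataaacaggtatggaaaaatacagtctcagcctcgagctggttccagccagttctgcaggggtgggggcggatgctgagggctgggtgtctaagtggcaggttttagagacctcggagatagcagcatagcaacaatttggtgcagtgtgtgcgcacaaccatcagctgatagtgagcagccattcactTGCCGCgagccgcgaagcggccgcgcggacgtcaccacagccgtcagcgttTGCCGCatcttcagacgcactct
Mest: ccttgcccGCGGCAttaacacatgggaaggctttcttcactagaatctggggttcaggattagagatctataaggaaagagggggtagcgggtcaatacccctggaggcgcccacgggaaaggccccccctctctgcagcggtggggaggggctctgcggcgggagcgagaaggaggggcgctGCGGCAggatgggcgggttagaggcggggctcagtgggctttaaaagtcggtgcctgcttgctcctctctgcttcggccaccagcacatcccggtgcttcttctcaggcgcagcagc
Zdbf2: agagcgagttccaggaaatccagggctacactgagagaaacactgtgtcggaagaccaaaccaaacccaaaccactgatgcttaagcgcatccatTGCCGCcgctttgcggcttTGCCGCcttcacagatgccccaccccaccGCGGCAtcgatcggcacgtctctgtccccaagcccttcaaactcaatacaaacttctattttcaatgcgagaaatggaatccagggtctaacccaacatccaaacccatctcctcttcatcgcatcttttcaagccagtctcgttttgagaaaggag
RefSeq windows were found for 33 of the 41 members, and these had 50 windows. The hexamer was found on either strand in 14 of them (28.0%), against 11.6% of all 32851 promoter windows of the same length. At least 2 copies stood in 5 windows of the members (10%), against 1.53% of all. These were windows of Nap1l5, Zdbf2, the maternally expressed Calcr, which is not shown, and Mest. Mest was counted more than once, since its windows with the hexamer overlap almost fully. The hexamer itself holds a CpG, and the windows were not matched for CpG content. The median number of CpG dinucleotides was 15 in the windows of the members and 7 in all windows, and the median GC content was 55.8% and 52.7%. By parental class, the hexamer stood in 8 of 27 windows of paternally expressed genes (29.6%), in 3 of 13 of maternally expressed genes (23.1%) and in 3 of 10 of the others (30.0%). A match describes these letters and is not evidence of binding, and control regions away from the start sites are outside these windows.

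Depth allowed most of the members to be followed. From the confidence limits of the FPKM values, fragments were estimated at 3016524 to 5902159 for a MOE library. For a VNO library they were 3373400 to 6779893 and for an OB library 3592962 to 6437263. These estimates are not read counts and hold no spread between pools. By them, at least 3 fragments were found in all 12 libraries for 29 members in MOE, for 33 in VNO and for 34 in OB. For 27 members this held in all 3 tissues. These fragment numbers are not the sequenced or aligned pairs, which the paper gives as higher. Library CM3 of MOE stood apart, with the fewest estimated fragments of the 12. It had the lowest value of the tissue for 21 of the 34 members above 0. By the paper's alignment summary, other MOE libraries had fewer aligned pairs. The shares of aligned reads and of concordant pairs were lowest in CM3. The paper's RNA integrity numbers were highest in OB and lowest in VNO, without overlap of the tissues. The part of RNA integrity in the differences between tissues was not tested. Library SF1 of VNO was lowest for 12 of 35 members and library SF1 of OB for 15 of 37. In MOE the summed level of 5 olfactory sensory neuron markers (Omp, Cnga2, Gnal, Adcy3, Ano2) was 950 to 1663 FPKM, against 93.5 to 137 in VNO and 37.9 to 55.3 in OB. The 7 markers of bulb neurons summed to 282 to 364 FPKM in OB, 15.7 to 28.5 in MOE and 6.23 to 9.68 in VNO. All but Slc17a6, which carried most of the sum outside OB, were higher in OB than in both other tissues, and vomeronasal markers had a median sum of 110 in VNO, 20.0 in MOE and 39.9 in OB. The sums of these marker lists were each highest in the tissue of that label, but single markers were not. Gnal of the olfactory list and Gnao1 of the vomeronasal list were higher in OB than in VNO. Of the vomeronasal markers, Gnai2, Gnao1 and Vmn2r1 were higher and Trpc2 lower in OB than in MOE. Of 5 endothelial markers, Cldn5 was at 12.6, 8.76 and 31.0 FPKM in MOE, VNO and OB, whereas Pecam1, Cdh5 and Kdr were lower in OB than in VNO. Erythroid markers had median sums of 214, 501 and 99.9, while skeletal muscle markers stayed at medians of at most 1.82. In bulk tissue, fewer cells of a type and less RNA per cell cannot be told apart.

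Of the 41 members, 26 had their highest mean level in OB, 11 in VNO and 4 in MOE. This count holds members listed at 0 elsewhere, such as Snrpn and Mest, and members near the floor, such as Zim1 and Dlk1. Neither this count nor the next was made over all genes. A mean of at least 10 FPKM was reached by 15 members in OB, 5 in VNO and 4 in MOE, while the mean stayed under 0.5 FPKM for 11, 13 and 17 members. Gnas, which encodes the stimulatory G protein alpha subunit and its imprinted alternative products, was the most abundant member in each tissue.

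**Figure D1:**
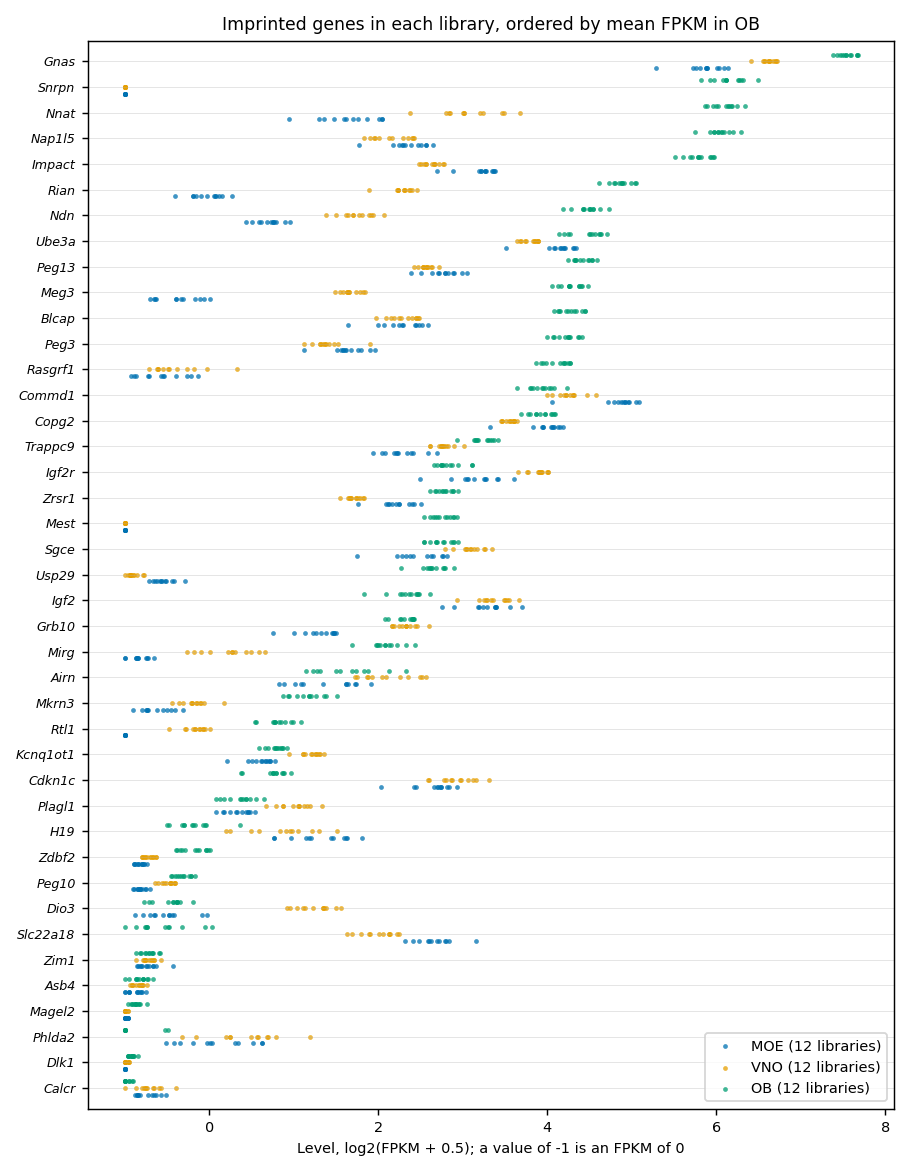
Levels of the imprinted genes in MOE, VNO and OB, with 1 point per library (12 per tissue) and the level as log2(FPKM + 0.5) on the x axis, where -1 is an FPKM of 0. Gnas has the highest mean in every tissue, and 26 of the 41 genes, low ones included, have their highest mean in OB.

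In the comparison of the tissues, 34 members passed the filter of a mean of at least 0.5 FPKM over the 36 libraries. The differences below are log2 differences of FPKM + 0.5, which understate changes of low genes, with p-values of limma adjusted over all 14642 genes tested. Most genes of any kind differed between these tissues, so the shares of the members have to be read against that. Of the 34 members, 30 passed an adjusted p of 0.05 between OB and MOE, against 85.1% of all genes. In VNO against MOE 29 passed, against 82.6%, and in OB against VNO 33 passed, against 85.8%. The share of members called was thus near that of all genes. The largest adjusted p among the members called was 0.00416, 0.0214 and 0.00208, and where a difference between tissues is given without a p it passed the threshold, unless its interval is given instead. Direction and size were less alike. Leaving out members listed at 0 on 1 side, 20 were higher in OB than in MOE and 7 were lower. Of all genes, 39.4% were higher and 45.7% lower. The shares and medians of all genes, here and below, keep genes listed at 0 on 1 side. Between VNO and MOE 17 were higher and 11 lower, where 34.0% of all genes were higher and 48.6% lower. Between OB and VNO 19 were higher and 12 lower, where 48.0% of all genes were higher and 37.8% lower. Under upper quartile scaling, 21 members were higher and 6 lower in VNO than in MOE, with Rtl1 counted. The median difference of the members was 0.95 between OB and MOE, 0.35 between VNO and MOE and 0.80 between OB and VNO. Over all genes it was -0.07, -0.15 and 0.12. With the members listed at 0 on 1 side kept, the medians of the members were 1.34, 0.32 and 0.96. By a bound chosen after the values were seen, an adjusted p under 0.05 with a difference of at least 4-fold, 11 members were higher in OB than in MOE (8.48% of all genes) and 1 was lower (9.86%). For OB against VNO the counts were 9 higher (8.19%) and 2 lower (9.41%), and for VNO against MOE 2 higher (2.40%) and 0 lower (4.17%).

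**Figure D2:**
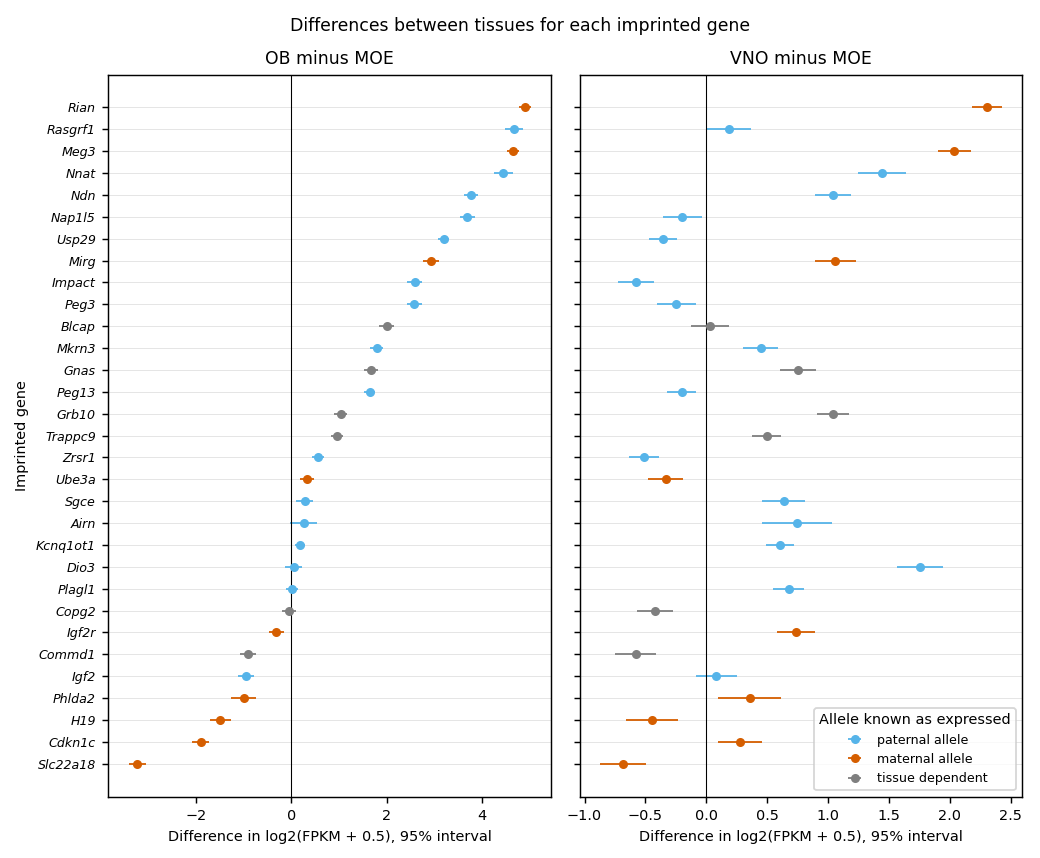
Log2 differences of FPKM + 0.5 between OB and MOE and between VNO and MOE for 31 imprinted genes, with 95% intervals and coloured by the allele they are known to be expressed from. Rian, Rasgrf1, Meg3 and Nnat lie farthest to the right for OB, and Slc22a18 lies farthest to the left.

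The Dlk1-Dio3 region on chromosome 12 held members with a steep order of levels across the tissues. Its maternally expressed noncoding RNAs Meg3 (chr12:110779206-110809939, mm9), Rian and Mirg are spliced hosts of small nucleolar RNAs and microRNAs. Rian was at 0.253 to 0.708 FPKM in MOE (median 0.511), 3.22 to 5.01 in VNO (median 4.44) and 24 to 32.5 in OB (median 28.9). All 12 libraries of each tissue were therefore apart from those of the other tissues. The log2 difference was 2.30 (SE 0.060) between VNO and MOE and 4.89 (SE 0.060) between OB and MOE. Meg3 followed the same order, with 0.114 to 0.508 FPKM in MOE (median 0.276), 2.31 to 3.09 in VNO (median 2.63) and 16.1 to 21.9 in OB (median 18.7). Its difference was 2.04 (SE 0.065) between VNO and MOE and 4.65 (SE 0.065) between OB and MOE. Mirg was at a mean of 0.692 ± 0.243 FPKM in VNO and 3.79 ± 0.558 in OB (SD, n = 12). In MOE its estimate stayed under 3 fragments in all libraries, at most 2.16 in SM3 at 0.134 FPKM. The ratio of Rian to Meg3 was 1.63 ± 0.212 in VNO and 1.51 ± 0.144 in OB, and in MOE, where both were low, it was 2.16 ± 1.26. The ratio of Mirg to Rian was 0.159 in VNO and 0.132 in OB.

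Among the paternally expressed protein-coding genes of the same region, Dio3 did not have that order. Dio3, which encodes the deiodinase that inactivates thyroid hormone, was a VNO gene among the 3 tissues. It was at 1.40 to 2.45 FPKM in VNO (median 1.94), against 0.0424 to 0.481 in MOE (median 0.201) and 0.0870 to 0.377 in OB (median 0.252). The VNO libraries overlapped with neither of the others, with a log2 difference of 1.75 (SE 0.092) to MOE, while OB was 1.71 lower than VNO on the log2 scale (log2 difference -1.71, SE 0.092). Between OB and MOE the difference of Dio3 was 0.05 (SE 0.092, 95% interval -0.14 to 0.23). Rtl1, a retrotransposon-derived gene, was higher in OB than in VNO, as Rian and Meg3 were. It was at 1.27 ± 0.195 FPKM in OB and 0.394 ± 0.0782 in VNO (log2 difference 0.98). All MOE libraries listed it at 0, which can be a failed estimate, so its place in MOE cannot be given. The overlapping 6430411K18Rik was at 0.460 ± 0.191 FPKM in VNO and 2.26 ± 0.415 in OB, and its part in the Rtl1 difference was not tested. Dlk1, a membrane ligand related to the Notch ligands, was hardly detected. It was listed at 0 in all MOE libraries, and 1 OB library and 0 VNO libraries reached 3 fragments, too few to read an order from.

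The entries of Meg3 that carried the level were not the same in VNO and OB. Adding the entries by annotated start (chr12:110779206 for NR_027651 and NR_027652, and 4402 bases further for NR_003633, both in mm9), the first start had 1.78 ± 0.267 FPKM in VNO and 6.03 ± 0.666 in OB. The second start had 0.910 ± 0.151 in VNO and 13 ± 1.23 in OB. The share of the first start in the total was thus 53.3% to 72.4% in the VNO libraries (median 68.3%) and 28.0% to 34.7% in the OB libraries (median 31.5%), without overlap. In MOE it ran from 0% to 62.0%, at low levels. One of the first-start entries, NR_027652, was at 1.75 ± 0.296 FPKM in VNO and listed at 0 in all 12 OB libraries. Cufflinks divides reads that overlapping transcripts share, so these shares are estimates and not counts of reads across a start. The window shown above for the second start is the one with a single CpG.

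**Figure D3:**
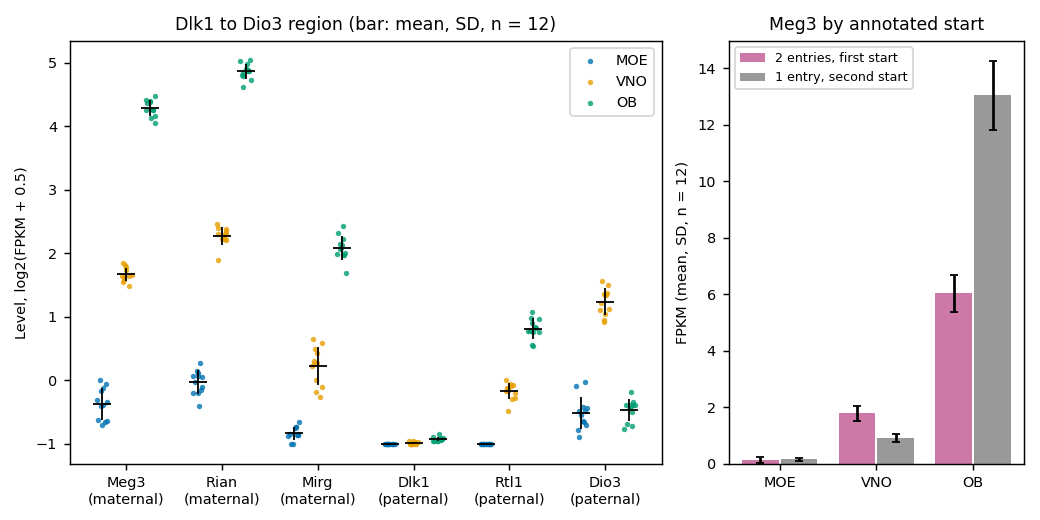
Left, levels of 6 genes of the Dlk1-Dio3 region per library as log2(FPKM + 0.5) in MOE, VNO and OB, with the mean and SD of 12 libraries. Right, the mean Meg3 level in FPKM (SD, n = 12) by annotated start, where the second start carries most of the OB level and the first start most of the VNO level.

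Peg3 and Usp29 share the short stretch between their starts but not their levels. Peg3 (chr7:6658671-6683130, mm9), which encodes a zinc finger protein, was at 1.67 to 3.38 FPKM in MOE (median 2.56), 1.67 to 3.25 in VNO (median 2.07) and 15.5 to 20.8 in OB (median 18.4). The OB libraries lay above all others, and the log2 difference was 2.58 (SE 0.078) to MOE and 2.83 (SE 0.078) to VNO. Usp29, a ubiquitin-specific protease homologue, was at 0.109 to 0.316 FPKM in MOE, 0 to 0.0841 in VNO and 4.32 to 6.96 in OB, with a log2 difference of 3.55 (SE 0.056) between OB and VNO. Only 3 of the 12 VNO libraries reached 3 fragments for Usp29. The ratio of Usp29 to Peg3 was 0.319 in OB, 0.0714 in MOE and 0.0156 in VNO. Zim1, the maternally expressed zinc finger gene of the locus, was low throughout, with means of 0.106, 0.107 and 0.108 FPKM in MOE, VNO and OB.

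The Prader-Willi and Angelman region on chromosome 7 was most abundant in OB. Ndn, the paternally expressed necdin gene (chr7:69493163-69494813, mm9), was at 0.846 to 1.44 FPKM in MOE (median 1.17), 2.098 to 3.69 in VNO (median 2.83) and 17.6 to 26 in OB (median 22.1). No tissue overlapped with another, and the log2 difference was 3.77 (SE 0.072) between OB and MOE and 1.04 (SE 0.072) between VNO and MOE. Mkrn3, a zinc finger protein linked to the timing of puberty, followed the same order at means of 0.153, 0.388 and 1.76 FPKM. Magel2 reached 3 fragments in 8 OB libraries and in none of MOE or VNO, at a mean of 0.0471 FPKM in OB. Ube3a, the ubiquitin ligase that is maternally expressed in neurons, was the least contrasted of the group, at 17.2 ± 2.35 FPKM for MOE, 13.4 ± 0.877 for VNO and 21.7 ± 2.89 for OB. It was 0.33 higher in OB than in MOE on the log2 scale (SE 0.068, adjusted p = 6.73e-05 by limma). Snhg14, which overlaps Ube3a, was at 0 in MOE and 6.14 FPKM in OB, and its part in this difference was not tested.

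Snrpn, which encodes a splicing protein of the same region, was listed at 55.9 to 89.8 FPKM in OB (mean 71.0) and at 0 in all libraries of MOE and VNO. The entry that carries the OB value was listed in the tables of VNO and OB but not in those of MOE. Snhg14, the host transcript of the antisense and small nucleolar RNAs next to it, was likewise at 6.14 ± 0.846 FPKM in OB and at 0 elsewhere. Mest, a paternally expressed hydrolase gene, was at 5.31 to 7.11 FPKM in OB and at 0 in all MOE and VNO libraries. Zeros of this kind were not confined to imprinted genes, since 18 genes in MOE, 16 genes in VNO and 32 genes in OB were at 0 in all 12 libraries with a median above 5 FPKM in another tissue. They can be failed estimates, so no fold is given for Snrpn, Mest or Rtl1 against a tissue in which they were listed at 0.

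Nnat (neuronatin), a paternally expressed proteolipid gene within an intron of Blcap, was at 1.42 to 3.64 FPKM in MOE (median 2.65), 4.70 to 12.3 in VNO (median 7.60) and 57.9 to 80.2 in OB (median 69.4). The 3 tissues did not overlap. The log2 difference was 4.45 (SE 0.096) between OB and MOE and 1.44 (SE 0.096) between VNO and MOE. Its host Blcap, a gene of mixed imprinting named for bladder cancer, was at 4.37 FPKM for MOE, 4.42 for VNO and 18.8 for OB, with 0.03 between VNO and MOE (SE 0.077, adjusted p = 0.732 by limma). The ratio of Nnat to Blcap was therefore 0.621 in MOE, 1.86 in VNO and 3.62 in OB.

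Rasgrf1, a paternally expressed exchange factor that activates Ras in neurons, was nearly restricted to OB among the 3 tissues. It was at 14.0 to 18.8 FPKM in OB (median 17.5), against 0.0269 to 0.408 in MOE and 0.109 to 0.755 in VNO. The log2 difference of OB was 4.67 (SE 0.090) to MOE and 4.49 (SE 0.090) to VNO, while VNO and MOE differed by 0.18 (SE 0.090, adjusted p = 0.062 by limma). Nap1l5, an intronless gene related to nucleosome assembly factors, was at 53.2 to 77.6 FPKM in OB (median 65.2), against 2.91 to 5.77 in MOE (median 4.61) and 3.05 to 4.87 in VNO (median 3.93). Its log2 difference was 3.69 (SE 0.078) between OB and MOE and 3.89 (SE 0.078) between OB and VNO. Impact, a paternally expressed regulator of translation, was at 45 to 62.4 FPKM in OB (median 54.7), 6.00 to 9.95 in MOE (median 9.11) and 5.06 to 6.34 in VNO (median 5.75). It was 2.59 higher in OB than in MOE and 3.16 higher than in VNO on the log2 scale (SE 0.073 for both).

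Gnas had means of 58.4 ± 8.27 FPKM for MOE, 97.8 ± 5.54 for VNO and 186.5 ± 12.5 for OB, in 3 ranges without overlap. The log2 difference was 0.75 between VNO and MOE and 1.68 between OB and MOE (SE 0.072 for both). Of its 11 entries 2 were above 0 in any library, and NM_201616 was at 40.2, 77.0 and 173.6 FPKM in MOE, VNO and OB, while NR_003258 was at 18.2, 20.8 and 12.9. Peg13, a paternally expressed noncoding RNA inside Trappc9, was at 6.35 FPKM for MOE, 5.41 for VNO and 20.9 for OB, and its host Trappc9, a gene of vesicle traffic, at 4.40, 6.34 and 8.91. The ratio of Peg13 to Trappc9 was 1.46 for MOE, 0.857 for VNO and 2.36 for OB. A similar pair is Zrsr1, a paternally expressed splicing factor gene within Commd1. The ratio of Zrsr1 to Commd1 was 0.149 for MOE, 0.150 for VNO and 0.435 for OB, where Zrsr1 had its highest mean of the tissues (6.39 FPKM) and Commd1 its lowest (14.9).

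H19 and Igf2 on chromosome 7 ran the other way. They are neighbours with opposite parental expression, a noncoding RNA and a growth factor. Igf2 (chr7:149836673-149852721, mm9) was at 6.25 to 12.5 FPKM in MOE (median 9.59), 7.12 to 12.2 in VNO (median 9.63) and 3.06 to 5.63 in OB (median 4.70). The OB libraries lay below all others, with a log2 difference of -0.94 (SE 0.082) to MOE and -1.03 (SE 0.082) to VNO, while VNO and MOE differed by 0.08 (SE 0.082, adjusted p = 0.349 by limma). With the highest entry alone in place of the sum, the difference between OB and VNO was -0.43 and did not pass (adjusted p = 0.123 by limma). H19 was at 1.20 to 2.99 FPKM in MOE (median 2.01), 0.643 to 2.34 in VNO (median 1.41) and 0.206 to 0.788 in OB (median 0.369). OB overlapped with VNO but not with MOE, to which the log2 difference was -1.49 (SE 0.105). The mean ratio of H19 to Igf2 was 0.226 in MOE and 0.142 in VNO, with 0.0847 in OB.

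Cdkn1c, Slc22a18 and Phlda2 are maternally expressed genes that lie next to each other on chromosome 7, under the control region of the paternally expressed Kcnq1ot1. Cdkn1c, a brake on the cell cycle, was at 3.605 to 7.14 FPKM in MOE (median 6.08), 5.51 to 9.45 in VNO (median 7.07) and 0.794 to 1.46 in OB (median 1.21). The log2 difference of OB was -1.90 (SE 0.089) to MOE and -2.18 (SE 0.089) to VNO, without overlap. Slc22a18, a transporter, was at 4.49 to 8.44 FPKM in MOE (median 5.81), 2.61 to 4.22 in VNO (median 3.59) and 0 to 0.518 in OB (median 0.147), where 3 of 12 libraries reached 3 fragments. It had the largest fall of the members, with a log2 difference of -3.23 (SE 0.092) between OB and MOE and -0.68 (SE 0.092) between VNO and MOE. Phlda2, a small pleckstrin homology protein known from the placenta, was at means of 0.593 FPKM in MOE and 0.901 in VNO, while 10 of 12 OB libraries listed it at 0. Kcnq1ot1 itself was not lower in OB than in MOE, at 1.02 ± 0.154 FPKM for MOE, 1.81 ± 0.174 for VNO and 1.22 ± 0.113 for OB, a log2 difference of 0.18 between OB and MOE (SE 0.055, adjusted p = 0.00318 by limma).

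Igf2r, the maternally expressed receptor that clears IGF2, and its antisense RNA Airn were both highest in VNO. Igf2r was at 12.1 to 15.6 FPKM in VNO (median 14.6), 5.13 to 11.7 in MOE (median 8.64) and 5.83 to 8.16 in OB (median 6.39). VNO was above every library of the other tissues, by 0.74 (SE 0.078) to MOE, and OB was lower than VNO with a log2 difference of -1.05. Airn was at 3.94 ± 0.951 FPKM in VNO, 2.17 ± 0.675 in MOE and 2.70 ± 0.857 in OB, and with its highest entry alone the difference of Airn between VNO and MOE was 0.31 and did not pass, against 0.74 for the sum. The ratio of Igf2r to Airn was 4.22 for MOE, 3.84 for VNO and 2.66 for OB. Plagl1, a zinc finger transcription factor that is paternally expressed, was likewise highest in VNO, at 1.53 ± 0.260 FPKM against 0.771 ± 0.127 in MOE and 0.790 ± 0.152 in OB. Grb10, an adaptor that dampens insulin and IGF signalling and is paternally expressed in neurons, was at 1.965 ± 0.356 FPKM for MOE, 4.53 ± 0.467 for VNO and 4.51 ± 0.398 for OB. VNO and OB did not differ beyond their spread, with -0.003 between them (SE 0.064, 95% interval -0.13 to 0.13).

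The remaining members were even or low. Copg2, a coat protein gene that overlaps Mest at its 3' end, was at 15.4, 11.2 and 14.8 FPKM in MOE, VNO and OB. Sgce, the paternally expressed epsilon-sarcoglycan gene, was at 5.11, 8.10 and 6.21 FPKM, and its entries changed between tissues. NM_011360 gave a median share of 100% of the Sgce level in MOE and VNO but 43.4% in OB, where NM_001130189 gave 50.3%. The direction of Sgce between OB and MOE, 0.28 (SE 0.087) for the sum of its entries, depended on this, since its highest entry alone gave -0.90. Its neighbours Peg10, Asb4 and Calcr had means of at most 0.302 FPKM in every tissue. Zdbf2 was at 0.0648 in MOE, 0.108 in VNO and 0.383 in OB. None of these 4, nor Zim1, Dlk1 and Magel2, passed the filter for the tissue comparison.

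Parental class and direction can be put side by side for the genes tested and not listed at 0 on a side. Of 16 paternally expressed members, 12 were higher in OB than in MOE and 1 was lower, with a median log2 difference of 1.72. Of 9 maternally expressed members, 4 were higher and 5 lower, with a median of -0.32. Over all genes tested the median was -0.07. Since most genes of any kind were called, these counts have to be read against the shares of all genes given above. The 4 higher ones were Meg3, Rian, Mirg and Ube3a, of which the first 3 lie in 1 locus, and the 5 lower ones were H19, Igf2r, Cdkn1c, Phlda2 and Slc22a18. For VNO against MOE the paternal members had 8 higher and 6 lower, and the maternal members 6 and 3. Of the 6 lower paternal members, Nap1l5, Peg13 and Peg3 turned direction under upper quartile scaling and Usp29 with its highest entry. Members of a locus share neighbours and control regions and are not independent of each other.

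Markers of other cell types also differed between the tissues. Beside the bulb neuron markers above, 9 markers of meninges and fibroblasts had a median sum of 34.8 FPKM in OB, 447 in MOE and 1275 in VNO, and 6 markers of cartilage and bone had 7.22, 56.2 and 110. Single markers went against these sums. Sp7 and Slc6a13 were higher in OB than in both other tissues, and Aldh1a2 was higher in OB than in VNO. Acan, Col2a1, Col9a1, Aldh1a2 and Slc6a13 were lower in VNO than in MOE. None of the markers in these lists was absent from a tissue. Their part in the differences of the imprinted genes was not tested. Lists of genes that act around the members had smaller median differences between OB and MOE. Their counts, too, have to be read against the shares of all genes called in each tissue comparison. Of 22 genes that maintain imprints or methylate DNA, 16 were tested, and 10 were higher and 4 lower in OB than in MOE, with a median difference of 0.18. By the mean over the 3 tissues, their most abundant members were Mbd2 at 28.5, 21.0 and 14.0 FPKM in MOE, VNO and OB, Trim28 at 15.5, 15.0 and 26.8, and Atrx at 13.9, 10.1 and 16.7. Of 39 other genes reported as imprinted in the mouse, 26 were tested, and 13 were higher and 9 lower in OB than in MOE, with a median of 0.16. By the same mean the most abundant of these was Dcn, which encodes a collagen-binding proteoglycan and is also in the fibroblast list, at 159.1, 142.1 and 11.4 FPKM. Among 15 genes of the IGF pathway, 12 were tested, and 9 were higher and 1 lower in VNO than in MOE, with a median of 0.83, while 2 were higher and 8 lower in OB than in VNO. Between OB and MOE 4 of them were higher and 7 lower, with a median of -0.39. Igfbp7, an IGF-binding protein of vessels and connective tissue and the most abundant of these by that mean, was at 45.9, 185.3 and 19.6 FPKM.

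The study was designed to ask what the company of the other sex changes in each tissue. For the imprinted genes tested, the largest log2 difference within a tissue was 0.81 in size, that of Nnat between SF and CF in VNO. Within tissues, the filter left 24 members for MOE, 28 for VNO and 30 for OB, each in 7 comparisons that share their libraries. By limma with Benjamini-Hochberg adjustment over all genes tested, 0 members passed an adjusted p of 0.05 in any of the 21. In MOE the share of all genes called was 0.0944% for SF against SM, 0.0436% for CF against CM, 0.0363% for SF against CF, 0.0654% for SM against CM, 0.0726% for sex over both housings, 0.102% for housing over both sexes and 0.0290% for the interaction. In VNO it was 0.0721%, 0.0433%, 0%, 0%, 0.123%, 0% and 0% in the same order, and in OB it was 0.0390%, 0.0468%, 0.00781%, 0%, 0.0625%, 0.00781% and 0.00781%. At an unadjusted p under 0.05, the members numbered 3, 0, 0, 1, 1, 1 and 0 in MOE. For VNO the numbers were 1, 2, 4, 0, 1, 3 and 1, and for OB 3, 1, 3, 2, 0, 3 and 2. Of all genes, 4.16%, 1.76%, 2.03%, 6.93%, 1.86%, 3.30% and 4.59% passed that bound in MOE, again in the same order. The shares were 8.79%, 3.94%, 11.0%, 2.31%, 6.73%, 7.57% and 5.26% in VNO, and 4.58%, 5.69%, 2.80%, 3.40%, 6.50%, 2.28% and 4.12% in OB.

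**Figure D4:**
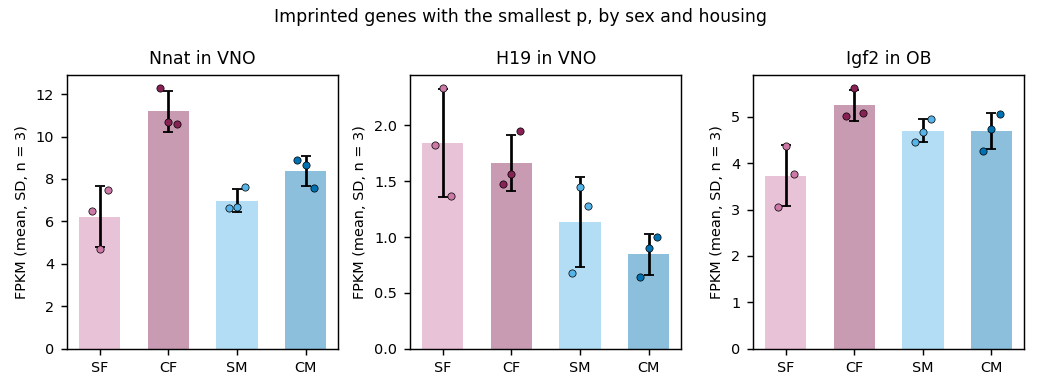
Levels in FPKM of Nnat in VNO, H19 in VNO and Igf2 in OB by group (SF, CF, SM, CM), with 1 point per library, bars for the mean of 3 libraries and error bars for the SD. The CF libraries lie above the SF libraries for Nnat and Igf2, and no difference passed the adjusted threshold.

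The smallest p among the members was that of Nnat in VNO. Its level was 6.50, 4.70 and 7.50 FPKM in the SF libraries, 12.3, 10.7 and 10.6 in CF, 6.64, 6.70 and 7.60 in SM, and 8.92, 8.68 and 7.59 in CM. The CF libraries lay above all 9 others. The log2 difference between SF and CF was -0.81 (SE 0.137, unadjusted p = 7.5e-05 and adjusted p = 0.288 by limma), with adjusted p-values from 0.134 to 0.897 under the alternatives. Over both sexes, separated minus combined animals gave -0.53 (SE 0.097, adjusted p = 0.501 by limma), and the interaction of sex and housing gave -0.57 (adjusted p = 0.895 by limma). The summed level of the bulb neuron markers in VNO was 6.23 to 6.87 FPKM in SF, 8.20 to 9.68 in SM, 7.47 to 9.61 in CF and 8.17 to 8.60 in CM, of which Slc17a6, a marker that was lower in OB than in MOE and VNO, gave a VNO mean of 6.51. This sum is therefore no measure of bulb neurons in VNO. Gad1, which was at 179.6 FPKM in OB and 1.36 in VNO, differed between SF and CF by -0.39 (adjusted p = 0.406 by limma). In VNO, Gad1 passed the threshold as lower in SF than in SM, and as lower in females over both housings. The summed olfactory sensory neuron markers in VNO were 93.5 to 113 FPKM in SF, 105 to 135 in SM, 118 to 137 in CF and 111 to 137 in CM. The vomeronasal markers were 94.0 to 107, 95.1 to 113, 112 to 114 and 103 to 120 in the same order. For both lists CF lay above SF without overlap. By the paper's RNA integrity numbers, the CF pools of VNO were lower than its SF pools without overlap. The part of other cells or of RNA integrity in the difference of Nnat was not tested.

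H19 in VNO was at 1.83, 2.34 and 1.37 FPKM in SF, 0.681, 1.45 and 1.28 in SM, 1.48, 1.56 and 1.95 in CF and 0.643, 0.902 and 0.998 in CM. The CF libraries lay above the CM libraries, while SF and SM overlapped. Females minus males over both housings gave 0.61 on the log2 scale (SE 0.142, unadjusted p = 0.0011 and adjusted p = 0.214 by limma), with adjusted p-values from 0.162 to 0.909 under the alternatives. The cartilage and bone markers of VNO had sums of 113 to 159 FPKM in SF and 127 to 142 in CF, against 87.4 to 107 in SM and 85.4 to 96.2 in CM. Females lay above males for them without overlap, and their part in the difference of H19 was not tested.

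In OB the SF group was lowest for Igf2, with 3.73 ± 0.656 FPKM against 5.24 ± 0.336 in CF, 4.69 ± 0.248 in SM and 4.69 ± 0.393 in CM (SD, n = 3 each). The log2 difference between SF and CF was -0.45 (unadjusted p = 0.00146 and adjusted p = 1 by limma), and -0.33 without library SF1, which had the lowest value of Igf2 in OB. SF against SM gave -0.31 (-0.19 without that library) and the interaction -0.46, and both passed only with library weights (adjusted p = 0.0104 and 0.0348 by limma). Meningeal and fibroblast markers in OB summed to 30.0 to 38.4 FPKM in SF, 34.6 to 38.3 in CF, 32.9 to 35.3 in SM and 33.8 to 37.1 in CM, and their part in the difference of Igf2 was not tested. Ube3a in OB was at 17.8 ± 0.673 FPKM in SF, 23.5 ± 0.848 in CF, 21.7 ± 2.85 in SM and 23.7 ± 1.75 in CM, and SF and CF differed by -0.39 (adjusted p = 1 by limma), a direction that turned when its highest entry alone was used. In MOE the smallest p-values were those of Phlda2, at 0.352 ± 0.142 FPKM in SF and 0.844 ± 0.170 in SM (log2 difference -0.66, unadjusted p = 0.0203 and adjusted p = 1 by limma), and of Plagl1, at 0.603 ± 0.040 in SF and 0.911 ± 0.044 in SM (log2 difference -0.36, adjusted p = 1 by limma). With library weights Plagl1 passed in that comparison and in the MOE interaction (adjusted p = 0.0271 and 0.0372 by limma). Of the 12 MOE libraries 9 reached 3 fragments for Phlda2.

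The other members with the smallest p in each comparison had an adjusted p of 0.406 to 1 by limma. In MOE, Airn was at 2.70 FPKM in SF and 1.81 in CF (log2 difference 0.49), with 0.40 for housing over both sexes, and Plagl1 differed by -0.26 between SF and CF and by -0.44 in the interaction. Trappc9 was at 5.22 FPKM in SM and 3.89 in CM (0.38) and Blcap at 5.18 and 3.95 (0.39), while Igf2r differed by 0.26 for housing and Blcap by -0.54 in the interaction. Commd1 and Grb10 differed by 0.28 and 0.18 between CF and CM, and H19 and Grb10 by 0.36 and 0.26 for sex over both housings. These MOE values except those between SF and CF hold the low library CM3, without which Blcap was at 0.15 between SM and CM and Commd1 and Grb10 at -0.024 and -0.030 between CF and CM. In VNO, Rian was at 3.85 FPKM in SF, 4.37 in SM (-0.17) and 4.74 in CF (-0.27), Commd1 differed by 0.22 and Nnat by -0.25 between SM and CM, and Nnat by 0.39 between CF and CM. Grb10 differed there by 0.15 for sex, Nap1l5 by -0.24 for housing and Mirg by 0.63 in the interaction. In OB, Meg3 was at 21.0 FPKM in SM and 17.7 in CM (0.24), with -0.31 in its interaction, and Igf2r at 7.66 and 6.50 (0.22). Mirg was at 3.23 FPKM in CF and 4.03 in CM (-0.28) and Nnat at 62.4 and 72.6 (-0.22). For sex over both housings Igf2r differed by -0.15 and Ndn by -0.16, and for housing Ube3a differed by -0.26 and Igf2 by -0.22. With library weights, adjusted p-values by limma passed for Airn between SF and CF in MOE (0.0439), for Meg3 and Igf2r between SM and CM in OB (0.00274 and 0.00359), for Igf2r by sex in OB (0.0217) and for Ube3a between SF and SM in OB, where its difference was -0.40 with the weights and -0.27 without. In simulated data made from the MOE libraries, 76.5% of genes with a log2 change of 1 were found between SF and SM, so that smaller changes of single imprinted genes may not be detectable at this number of pools.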

How the data were processed

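RNA-seq was analysed in 36 libraries, 12 each of MOE, VNO and OB, grouped by the tissue, sex, housing and replicate in their labels. The authors removed ribosomal RNA, sequenced both ends of the fragments of a stranded kit, merged 2 lanes, aligned to mm9 with TopHat2 2.1.0 and deposited FPKM values with confidence limits per RefSeq entry from Cufflinks 2.2.1.0, by the submitters' processing notes. The counting's use of strand is not given in the sources used here, so overlapping members on opposite strands (Commd1 and Zrsr1, Trappc9 and Peg13, Igf2r and Airn, Mest and Copg2) and hosts (Blcap of Nnat) are uncertain against each other. The same holds for members that overlap genes that are not members, such as Rtl1 with 6430411K18Rik, Ube3a with Snhg14 and Kcnq1ot1 with Kcnq1. The labels' design text gives 2 mice per pool and the methods another number. Tables of MOE hold 40150 entries and those of VNO and OB 40008, with 39675 shared by all, and some members are represented by different entries.

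Entries were matched to symbols (99.7%) and summed per gene. Genes with an entry not marked as successful were left out (6 in MOE, 2 in VNO and 2 in OB, 0 of them members). Fragments were estimated by dividing each FPKM by its standard error and squaring the quotient, rounding it to 0.1, with a floor of 3. Such estimates are not read counts, since in MOE Airn had 31.0 at 3.26 FPKM in SF1 and 38.6 at 2.04 FPKM in SF2. They hold no spread between pools, and PCR copies cannot be told from separate molecules without molecular identifiers. Differences were tested with limma 3.58.1 in R 4.3.3 (lmFit, eBayes with a trend) on log2(FPKM + 0.5) for genes with a mean of at least 0.5 FPKM, in 1 fit of 36 libraries between tissues and 1 fit of 12 libraries within each tissue, with Benjamini-Hochberg adjustment over all genes tested. The study used Cuffdiff, which needs alignments. The script was tested on simulated data with 200 changed genes, where 97% of genes with a log2 change of 1 were found between OB and MOE. Python 3.11.15, numpy 2.4.6, pandas 2.3.3 and matplotlib 3.10.9 were used otherwise.

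The members and lists were chosen with earlier results of these data known. Values are given for the 5 largest rises and falls per tissue comparison among non-overlapping members past the threshold, the 2 smallest p per cohort comparison, the most abundant member of each locus and its partners. Alternatives were pseudocounts of 0.1 and 1, no filter, quantile and upper quartile scaling, library weights, the highest entry per gene, entries shared by all tables, entries not marked as successful kept, fits on the libraries compared, the replicate number as a block and each library left out.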

Additional observations from a re-analysis of the deposited data

How the results depend on the processing

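Between tissues, 30 members were called for OB against MOE, 29 for VNO against MOE and 33 for OB against VNO. Leaving out 1 library at a time gave counts of 29 to 31, 28 to 30 and 32 to 33, and without library CM3 of MOE they were 31, 29 and 33. Without the filter 35, 31 and 38 of the 41 members were called. Of 4007 differences of called members under the alternatives, 3990 kept direction and side of the threshold. Upper quartile scaling moved the median of all genes for VNO against MOE from -0.15 to 0.08, and there 21 members were higher and 6 lower, against 18 and 11 in the reported fit, Rtl1 included. Directions that turned in that comparison were those of Nap1l5 (0.072), Peg13 (0.075) and Peg3 (0.0038) under upper quartile scaling, Peg13 (0.012) and Ube3a (0.047) under quantile scaling, and Usp29 (0.00071) with the highest entry. Sgce turned to -0.90 between OB and MOE with the highest entry, by which the level no longer sums its entries. For the others the cause was not tested. Calls lost without a turn were those of Airn (0.31), Cdkn1c (0.17) and Ube3a (-0.27) with the highest entry, H19 (-0.22) and Ube3a (-0.043) under upper quartile scaling, Nap1l5 (-0.062) and Phlda2 (0.28) under quantile scaling and Nap1l5 (-0.15) without library CM2 of MOE, all between VNO and MOE, and between OB and VNO those of Igf2 (-0.43) with the highest entry and Copg2 (0.027) under quantile scaling.

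Within tissues the count of members called stayed at 0 in each of the 21 comparisons with each library left out. Library weights, which let noisy libraries count less, called 3 members for SF against SM, 2 for SF against CF and 2 for the interaction in MOE. In OB they called 4 for SF against SM, 7 for SM against CM, 4 for sex, 1 for housing and 2 for the interaction, and the cause was not tested. Commd1 and Grb10, higher in CF than in CM in MOE by 0.28 and 0.18 without passing the threshold, turned to -0.030 and -0.041 with library weights. With 1 library left out at a time they ran from -0.024 to 0.49 and from -0.030 to 0.32, the lowest being without library CM3. With the highest entry, Ube3a in OB turned to 0.019 for SF against SM, 0.12 for SF against CF and 0.14 for housing.

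With the replicate number as a block, 30, 29 and 33 members were called between tissues and 0 in each comparison within a tissue. The deviations did not settle whether the numbers pair the samples. Of 36 pairs of libraries with the same cohort and number in different tissues, 10 had deviations correlated above 0.1 (range -0.239 to 0.220). Of the 36, 19 correlated best with their own number. Of 54 pairs with the same number in different cohorts of 1 tissue, 24 were above 0.1 (range -0.260 to 0.355) and 34 were best with their own number. In most pairs of both kinds the own number was thus the best of 3, though the correlations were low. The 3 tissues come from the same animals, but whether the pools do is not given in the sources used here. Precision is limited by 3 pools per group and, for low members, by a few fragments per library.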
